A study of Mus musculus with 9 samples.

Results

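The genes described here are the matrix metalloproteases (Mmp), the ADAMTS proteases (Adamts) and the tissue inhibitors of metalloproteases (Timp), read in the dermis of mouse ears. They were taken by name, as every row of the count table whose symbol was Mmp, Adamts or Timp followed by a number and at most the letter a or b. This gave 46 of the 52550 rows, made up of 23 Mmp, 19 Adamts and 4 Timp genes. Of these, 38 passed the filter on low counts and were tested, among 22430 tested genes in all. Mmp7 and Mmp20 had no count in any library, and the other 6 that were not tested were Adamts13, Adamts16, Mmp1a, Mmp1b, Mmp21 and Mmp24.

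Messenger RNA was sequenced in 9 libraries, 3 from each of 3 groups of wild type C57BL/6 mice (C57BL/6J in the study's methods) labelled as 8 weeks old and described as male in the methods. VAS+H2O mice had Vaseline on the ears for 5 days and water by gavage. IMQ+H2O mice had Imiquimod cream, a Toll-like receptor agonist that induces psoriasis-like inflammation, and water. IMQ+XYF mice had Imiquimod cream and the herbal decoction XYF (200 µl at 23.3 mg/g), and in all groups the gavage lasted 10 days and began 5 days before the application. The methods describe RNA from the ear sheets of more than 1 mouse, and it was not clear whether mice were pooled in a library. The study's n per group equals the number of libraries, but the sources do not say that each library came from separate mice, so the p-values measure the spread between these libraries, which may be technical.

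Matrix metalloproteases are zinc enzymes that are secreted or held at the cell surface and cut collagens, gelatins, laminins and many signalling proteins. ADAMTS proteases are secreted zinc enzymes whose thrombospondin repeats help to bind them to the matrix, where some cut proteoglycans and others trim procollagens. TIMPs bind and block the active enzymes. In skin, fibroblasts make most of the stromal members, neutrophils store Mmp8 and Mmp9 in granules, and keratinocytes at wound edges make stromelysins and collagenase.

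Levels are CPM, counts relative to the size of the library, scaled by the TMM factors of edgeR, and a value that compares genes is given per kb of exon. Total counts per library ran from 28756305 to 79836881, and a floor of 3 counts stood at 0.0373 to 0.103 CPM, which covers counting error only. Fibroblast markers were abundant in every library, with 10 genes summing to between 10960 and 26390 CPM, which fits the dermis label. Markers of other tissues were present too. The 10 keratinocyte genes summed to 3366 to 6230 CPM in VAS+H2O, 2390 to 3683 in IMQ+H2O and 4215 to 15810 in IMQ+XYF. The 13 cartilage genes, with Matn1 at 0 throughout, summed to 1864 to 4205, 552 to 963 and 1142 to 3151 CPM in the same order. The 9 skeletal muscle genes ran from 586 to 2765, 1301 to 2806 and 124 to 861 CPM. In bulk tissue, fewer cells of a type and less RNA per cell cannot be told apart.

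A cluster of 10 Mmp genes lies on chromosome 9 between positions 7272514 and 7699585 of GRCm38, a stretch of 427 kb. It includes all 4 collagenases, the stromelysins Mmp3 and Mmp10 and the macrophage elastase Mmp12. AP-1, a dimer of Fos and Jun proteins, is the classical regulator of several of these genes and binds TGACTCA and TGAGTCA. The 7-base motif TGANTCA, which reads the same on both strands, was searched in the 250 bases before the RefSeq start of the genes in a promoter table of GRCm38.p6, which held 32 of the members. Of those, 8 held it (25%), against 2113 of 27025 genes in the table (7.82%). All 8 were among the 10 cluster genes, namely Mmp3, Mmp7, Mmp10, Mmp12, Mmp13, Mmp1a, Mmp1b and Mmp20, and the 22 other members in the table held none. The match of Mmp20 was TGAATCA, which is neither sequence named above for AP-1, and the others were TGAGTCA or TGACTCA. The share over all genes counts every form of the motif. The 14 members not in the table were Adamts4, Adamts5, Adamts6, Adamts7, Adamts8, Adamts10, Adamts15, Adamts16, Adamts19, Mmp2, Mmp9, Mmp16, Mmp17 and Mmp19. Mmp7 and Mmp12 had 2 starts each in the table, with the match before the upstream start of Mmp7 only and before the downstream start of Mmp12 only. A match is a description of letters and not a site shown to be bound. The 100 bases before the start are given for the cluster genes whose levels are described next, with the match in capitals. They are from RefSeq, 5′ to 3′ on the gene's strand, at Mmp13 chr9:7272414-7272513 (+), Mmp12 chr9:7347274-7347373 (+, downstream start), Mmp1b chr9:7388027-7388126 (-), Mmp3 chr9:7445722-7445821 (+), Mmp1a chr9:7464041-7464140 (+), Mmp10 chr9:7502242-7502341 (+) and Mmp8 chr9:7558329-7558428 (+).
Mmp13: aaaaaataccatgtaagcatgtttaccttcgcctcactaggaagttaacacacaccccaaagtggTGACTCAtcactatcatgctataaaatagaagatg
Mmp12: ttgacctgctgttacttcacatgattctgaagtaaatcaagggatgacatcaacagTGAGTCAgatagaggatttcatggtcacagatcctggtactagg
Mmp1b: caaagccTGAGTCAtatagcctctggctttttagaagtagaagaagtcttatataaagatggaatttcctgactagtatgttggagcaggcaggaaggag
Mmp3: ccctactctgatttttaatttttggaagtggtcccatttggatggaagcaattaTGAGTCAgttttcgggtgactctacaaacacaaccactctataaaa
Mmp1a: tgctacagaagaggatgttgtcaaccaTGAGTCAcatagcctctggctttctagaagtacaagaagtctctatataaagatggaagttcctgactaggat
Mmp10: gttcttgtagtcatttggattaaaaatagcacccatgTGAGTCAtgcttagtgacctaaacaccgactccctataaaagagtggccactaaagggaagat
Mmp8: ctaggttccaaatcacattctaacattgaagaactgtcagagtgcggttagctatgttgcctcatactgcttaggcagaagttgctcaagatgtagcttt

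The match began 46 bases before the start in Mmp3, 63 in Mmp10, 44 in Mmp12, 35 in Mmp13, 73 in Mmp1a and 93 in Mmp1b. Mmp1a and Mmp1b are closely related copies, so the division of reads between them is uncertain. Mmp8 had no match in its window.

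The effect of imiquimod cream on these genes was read from IMQ+H2O against VAS+H2O. The controls had Vaseline, so imiquimod and the base of its cream cannot be told apart. A gene was called where edgeR's quasi-likelihood test gave an adjusted p of 0.05 or lower and the log2 fold change was at least 1 in size. By this test Timp1 and Mmp8 were called higher, and no member was called lower. These were 2 of the 38 tested members (5.26%), where 0.994% of all tested genes were called and 0.646% were called higher and 0.348% lower. At an unadjusted p under 0.05, edgeR gave 15 members (39.5%) against 20.9% of all tested genes. Of the 15, 9 were higher (23.7%, against 10.1% of all genes) and 6 lower (15.8%, against 10.8%). For 16 members (42.1%, against 31.5% of all genes) no library of one group lay within the range of the other, with 8 higher (against 15.1% of all genes) and 8 lower (against 16.5%). The median log2 fold change of the tested members was 0.19, and that of all tested genes was -0.02.

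**Figure D1:**
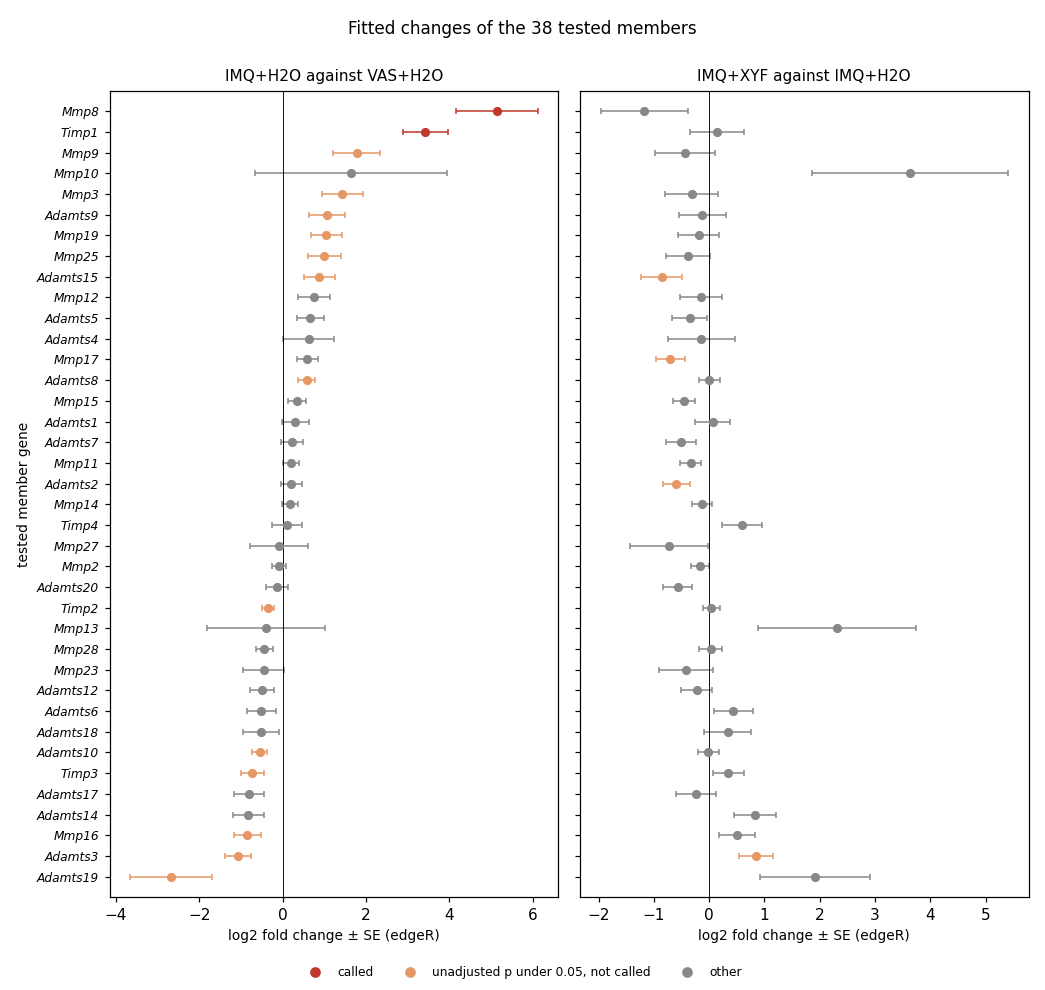
Log2 fold change (horizontal axis) of each of the 38 tested members, with bars for the standard error, from the edgeR fit. The left panel is IMQ+H2O against VAS+H2O and the right panel IMQ+XYF against IMQ+H2O, with members in the order of the left panel. Mmp8 (5.14) and Timp1 (3.42) are the called members on the left, and none is called on the right.

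Timp1, an inhibitor secreted by fibroblasts and many other cells in inflammation, lies on the X chromosome at positions 20870166 to 20874735 within an intron of Syn1, with no shared exon. It stood at 14.5, 18.9 and 16.3 CPM in VAS+H2O, at 94.5, 221 and 217 CPM in IMQ+H2O, and at 140.2, 91.8 and 358 CPM in IMQ+XYF. All 6 imiquimod libraries were above all 3 controls. The log2 fold change of IMQ+H2O against VAS+H2O was 3.42 ± 0.54 (SE, edgeR adjusted p = 0.0279). IMQ+XYF against VAS+H2O gave 3.57 ± 0.54 (edgeR adjusted p = 0.0247), a comparison that shares the control libraries with the first. Between the imiquimod groups the log2 fold change was 0.15 ± 0.49 (edgeR adjusted p = 0.924), with -0.61 without IMQ+XYF replicate 3, and their libraries overlapped. The first call was lost in edgeR without any 1 of the VAS+H2O libraries (adjusted p 0.0818, 0.0935 and 0.107 for replicates 1 to 3) and without IMQ+H2O replicate 2 (0.0885) or 3 (0.101), while the log2 fold change stayed between 3.23 and 3.73. Over all alternatives its adjusted p ran from 1.85e-10 in DESeq2 to 0.107. The call for IMQ+XYF against VAS+H2O was lost in edgeR without any 1 of the VAS+H2O libraries (adjusted p 0.0683, 0.1003 and 0.109) or IMQ+XYF replicate 1 (0.0615) and in a fit of only these groups (0.0598). That log2 fold change was 2.81 without IMQ+XYF replicate 3, and at most 3.96 over the libraries left out.

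None of the other inhibitors was called. Timp2, which also takes part in the activation of Mmp2 at the cell surface, was at 1896, 1666 and 1652 CPM in VAS+H2O, 1354, 1420 and 1323 in IMQ+H2O, and 1158, 1689 and 1369 in IMQ+XYF. The controls lay above IMQ+H2O without overlap, with a log2 fold change of -0.35 ± 0.15 that was not called (edgeR adjusted p = 0.227). Timp3, which binds to the matrix and also blocks ADAMTS proteases, was at 3090, 1666 and 1764 CPM in VAS+H2O, 1417, 1230 and 1293 in IMQ+H2O, and 1302, 2292 and 1418 in IMQ+XYF. Its log2 fold change was -0.73 ± 0.28 in IMQ+H2O (edgeR adjusted p = 0.194), again without overlap and not called. Exons of Syn3 on the other strand cover 21.3% of the exon length of Timp3. Timp4, which is expressed in fat and muscle, was at 94.2, 39.1 and 40.1 CPM in VAS+H2O, 63.7, 54.8 and 67.9 in IMQ+H2O, and 63.8, 129.6 and 88.0 in IMQ+XYF, with groups that overlapped.

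**Figure D2:**
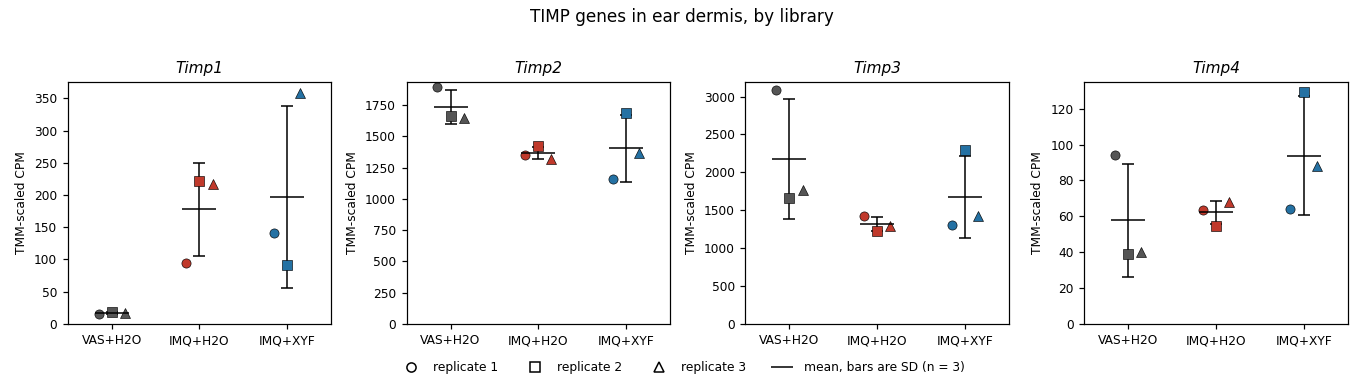
TMM-scaled CPM (vertical axis, starting at 0, own scale per panel) of the 4 Timp genes in each library of the 3 groups. Points are libraries, and the horizontal mark and bars are the mean and SD of 3. Timp1 is above 90 CPM in all 6 imiquimod libraries and below 20 in the 3 controls, while for Timp3 the highest libraries are VAS+H2O replicate 1 (3090) and IMQ+XYF replicate 2 (2292).

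Set per kb, the makeup of the inhibitors differed between control and imiquimod libraries. Timp1 held 2.6% ± 0.716 (SD, n = 3) of the summed Timp level in VAS+H2O, 27.1% ± 9.05 in IMQ+H2O and 26.8% ± 15.3 in IMQ+XYF. By library it held at most 3.22% among controls and at least 12.3% in imiquimod libraries. Timp2 remained the most abundant inhibitor in the group means, at 60.9%, 48.8% and 45.4%, although Timp1 was higher (42.7%, against 37.2%) in IMQ+XYF replicate 3. Timp3 held 35.3%, 22.6% and 25.8%.

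Among collagenases, which cut the triple helix of fibrillar collagen, Mmp8 of neutrophil granules (chromosome 9, 7558456 to 7568485) was the called member. It was at 0, 0.222 and 0.456 CPM in VAS+H2O (0, 8 and 34 counts), at 3.38, 5.51 and 17.3 CPM in IMQ+H2O, and at 5.24, 2.10 and 4.25 CPM in IMQ+XYF. Every imiquimod library was above every control. The log2 fold change was 5.14 ± 0.98 in IMQ+H2O (SE, edgeR adjusted p = 0.0453) and 3.97 ± 0.94 for IMQ+XYF against VAS+H2O, which was not called (edgeR adjusted p = 0.0708) but was called by DESeq2 (adjusted p = 0.00520) and by edgeR without IMQ+XYF replicate 2 (adjusted p = 0.0431). IMQ+XYF against IMQ+H2O gave -1.18 ± 0.79 (edgeR adjusted p = 0.566), and leaving out IMQ+H2O replicate 3, the library with the highest Mmp8, lowered the imiquimod value to 4.21 with an adjusted p of 0.142 and left -0.18 for IMQ+XYF against IMQ+H2O. Without VAS+H2O replicate 3 the imiquimod value was 6.33 and that of IMQ+XYF against VAS+H2O was 5.16. Over all alternatives the adjusted p of the imiquimod value ran from 1.669e-04 in DESeq2 to 0.142. In edgeR the call was also lost without any other library of these groups (adjusted p 0.0717, 0.133 and 0.106 without VAS+H2O replicates 1 to 3, 0.0640 and 0.1105 without IMQ+H2O replicates 1 and 2) and without IMQ+XYF replicate 3 (0.0674).

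The summed level of neutrophil markers was higher in all imiquimod libraries, as Mmp8 was. The 10 neutrophil genes summed to 8.95, 26.3 and 15.5 CPM in VAS+H2O, 224, 273 and 701 in IMQ+H2O, and 315, 184 and 502 in IMQ+XYF, with Ltf at 0 in all 3 controls. The part of these cells in the level of Mmp8 was not tested. IMQ+H2O replicate 3 was highest and IMQ+H2O replicate 1 lowest of its group in both, while in IMQ+XYF the highest Mmp8 was in replicate 1 and the highest marker sum in replicate 3. Much of the sum was S100a8 and S100a9. Of the marker genes, 9 were tested, and 5 were called higher in IMQ+H2O by edgeR, where 0.646% of all tested genes were called higher. The granule gene Camp had a log2 fold change of -1.01 ± 1.18 (edgeR adjusted p = 0.656), and Ltf was at 0 in 2 of the IMQ+H2O libraries too. Among them was S100a8, a calcium-binding protein abundant in neutrophils and also made by stressed keratinocytes, with a log2 fold change of 5.22 ± 0.76 (edgeR adjusted p = 0.0247).

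In edgeR the other genes known from leukocytes were not called. Mmp9, a gelatinase, was at 1.04, 4.17 and 1.59 CPM in VAS+H2O, 5.13, 6.04 and 11.9 in IMQ+H2O, and 5.51, 3.44 and 8.12 in IMQ+XYF. All 3 IMQ+H2O libraries were above the controls, at a log2 fold change of 1.78 ± 0.56 that was not called (edgeR adjusted p = 0.135) and was 2.53 without VAS+H2O replicate 2. DESeq2 did call Mmp9 higher in IMQ+H2O. Mmp25, a membrane-anchored protease of neutrophils, was at 1.53, 2.78 and 2.12 CPM in controls and 2.27, 6.04 and 4.51 in IMQ+H2O (log2 fold change 1.0 ± 0.41, edgeR adjusted p = 0.210). The groups overlapped for Mmp25, as they did for Mmp12 of macrophages, which was at 2.67, 2.72 and 3.34 CPM in controls and 2.82, 7.64 and 4.19 in IMQ+H2O (0.75 ± 0.38, edgeR adjusted p = 0.298). Summed, the 4 leukocyte genes stood at 5.24 to 9.89 CPM in VAS+H2O, 13.6 to 37.9 in IMQ+H2O and 12.7 to 21.95 in IMQ+XYF. The 10 monocyte and macrophage markers, all detected in every group, summed to 760 to 1241, 1025 to 1527 and 866 to 989 CPM, and their part in Mmp12 was not tested.

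The remaining collagenases showed a different pattern across libraries. Mmp13, made by chondrocytes and by fibroblasts in repair, was at 0, 2.64 and 0.683 CPM in VAS+H2O, 0.517, 1.07 and 0.878 in IMQ+H2O, and 1.20, 0.305 and 10.8 in IMQ+XYF. Mmp1b had no count in the controls, 0.103, 0 and 0.0975 CPM in IMQ+H2O, and 1.06, 0 and 2.08 CPM in IMQ+XYF, the last from 85, 0 and 128 counts. Mmp1a had counts only in IMQ+XYF replicates 1 and 3, at 19 and 24, and is annotated as a polymorphic pseudogene. Thus for all 3 genes IMQ+XYF replicate 3 held the highest level and IMQ+XYF replicate 2 had the lowest of its group.

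Mmp10, a stromelysin of migrating keratinocytes, followed the same order, at 0, 0.139 and 0 CPM in VAS+H2O, 0.103, 0.267 and 0 in IMQ+H2O, and 0.423, 0 and 4.12 in IMQ+XYF. Its log2 fold change for IMQ+XYF against IMQ+H2O was 3.63 ± 1.78 (edgeR adjusted p = 0.456), and that of Mmp13 was 2.31 ± 1.43 (edgeR adjusted p = 0.537). Without IMQ+XYF replicate 3 the value of Mmp10 became 0.85 and that of Mmp13 -0.12. Without IMQ+H2O replicate 2 the value of Mmp10 was 5.14. Against the floor of 3 counts per library in VAS+H2O, the mean of Mmp1b in IMQ+XYF was at least 16.0-fold higher and that of Mmp1a at least 3.19-fold higher, and both rest on 2 of 3 libraries. The summed keratinocyte markers were also lowest in replicate 2 of the IMQ+XYF group, at 15810, 4215 and 7586 CPM, with the highest sum in replicate 1. The keratins of wounded and hyperplastic epidermis on that list were highest in replicate 3 and lowest in replicate 2, as these Mmp genes were, with Krt6a at 398, 175 and 1039 CPM, Krt6b at 79.6, 46.1 and 504 CPM and Krt16 at 464, 132 and 742 CPM. The other genes of the list, Krt1, Krt5, Krt10, Krt14, Trp63, Dsg3 and Sfn, were all highest in replicate 1 of IMQ+XYF. All of them but Krt10 were lowest in replicate 2. All 10 keratinocyte genes were higher in IMQ+XYF than in IMQ+H2O at an unadjusted p under 0.05 in edgeR (against 6.35% of all tested genes). None was called, and the part of keratinocytes in the levels of these Mmp genes was not tested. A stretch of 10.8% of the exon length of Mmp1b overlaps Mmp12 on the other strand.

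**Figure D3:**
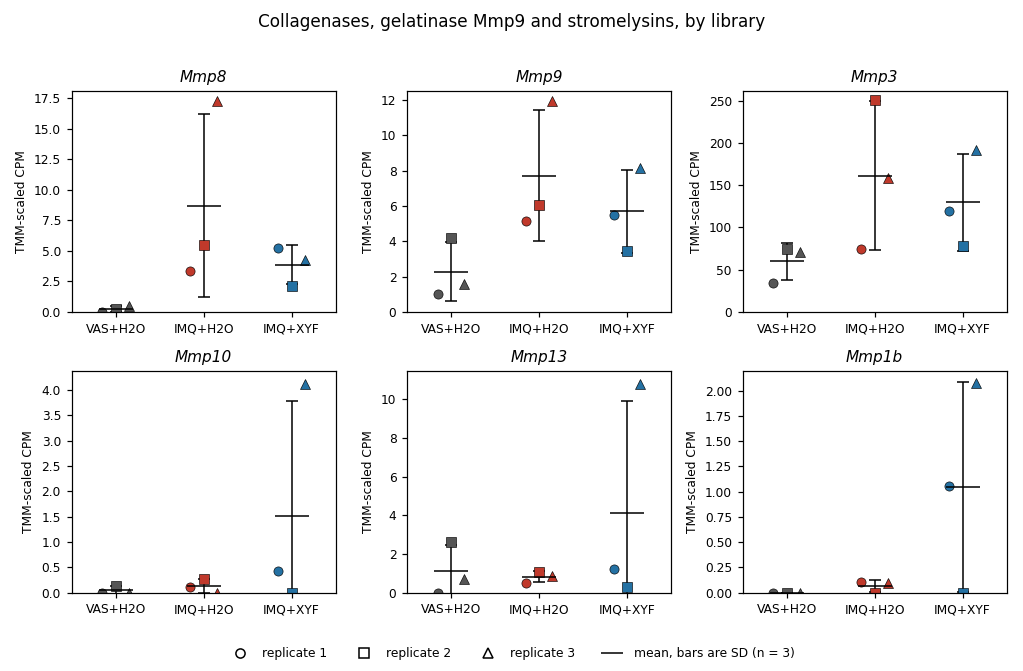
TMM-scaled CPM (vertical axis, starting at 0, own scale per panel) of 6 Mmp genes in each library of the 3 groups. Points are libraries, the horizontal mark and bars are the mean and SD of 3, and bars are cut at 0. Mmp8 is at most 0.456 CPM in controls and at least 2.10 CPM in imiquimod libraries, while the highest Mmp10, Mmp13 and Mmp1b levels are those of IMQ+XYF replicate 3.

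Mmp3, the stromelysin of fibroblasts and wound keratinocytes that cuts proteoglycans and activates other proenzymes, was at 34.2, 74.5 and 70.7 CPM in VAS+H2O, 74.4, 251 and 158 in IMQ+H2O, and 120.0, 77.9 and 191 in IMQ+XYF. The lowest IMQ+H2O library lay just under the highest control, and the log2 fold change of 1.43 ± 0.49 was not called (edgeR adjusted p = 0.155). DESeq2 did call Mmp3 higher in IMQ+H2O. IMQ+XYF did not overlap VAS+H2O (1.12 ± 0.49, edgeR adjusted p = 0.269). Mmp28 (epilysin), a protease of resting keratinocytes, had a log2 fold change of -0.45 ± 0.20 in IMQ+H2O (edgeR adjusted p = 0.253). With Mmp7 at no count, the 4 genes taken as keratinocyte-derived summed to 57.4 to 93.4 CPM in VAS+H2O, 85.7 to 267 in IMQ+H2O and 91.9 to 207 in IMQ+XYF. Nearly all of this was Mmp3, which stromal cells make as well. The keratinocyte marker sum had a mean of 4642 ± 1457 CPM (SD, n = 3) in VAS+H2O and 2977 ± 655 in IMQ+H2O, while Krt6a, Krt6b and Krt16 of that list were higher in IMQ+H2O without overlap and not called (log2 fold changes 1.26, 2.69 and 2.53, edgeR adjusted p 0.237, 0.138 and 0.0920). The part of keratinocytes in the level of Mmp3 was not tested.

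The Mmp level as a whole was carried by stromal genes. Mmp2, the gelatinase of fibroblasts, was at 958, 1177 and 1084 CPM in VAS+H2O, 815, 1190 and 1001 in IMQ+H2O, and 893, 764 and 1022 in IMQ+XYF. The 3 groups overlapped, with a log2 fold change of -0.10 ± 0.17 in IMQ+H2O (edgeR adjusted p = 0.776). Per kb it was the most abundant Mmp in VAS+H2O, at 318 ± 32.6 CPM per kb, followed by Mmp14, the membrane protease that activates it, at 42.4 ± 5.74 and by Mmp3 at 33.2 ± 12.4. The last pair did not differ beyond their spread. Over all members the order per kb was Timp2 (446 ± 35.2), Mmp2, Timp3 (267 ± 97.7), Adamts1 (60.5 ± 24.4) and Mmp14, where Timp3 and Mmp2 lay within their spread, as did Adamts1 and Mmp14.

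As a share of the summed Mmp level per kb, Mmp2 held 73.9% ± 2.59 in VAS+H2O, 62.0% ± 4.74 in IMQ+H2O and 63.2% ± 4.61 in IMQ+XYF. Mmp3 held 7.52% ± 2.07, 17.5% ± 5.71 and 16.5% ± 3.80. Every imiquimod library had a smaller Mmp2 share and a larger Mmp3 share than every control. Mmp14 stayed between 9.45% and 11.04% in all 9 libraries. Mmp8 reached 1.46% in IMQ+H2O replicate 3 and was under 1% elsewhere.

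Other Mmp genes were at lower levels. Mmp19, found in vessel wall and stromal cells, was at 18.5, 30.9 and 33.8 CPM in VAS+H2O and 38.2, 73.9 and 59.1 in IMQ+H2O without overlap (log2 fold change 1.04 ± 0.37, edgeR adjusted p = 0.169). Exons of Tmem198b on the other strand cover 22.3% of its exon length. Mmp16, a membrane-type protease, was at 7.96, 5.73 and 7.48 CPM in VAS+H2O and 4.93, 2.67 and 4.16 in IMQ+H2O, again without overlap (-0.85 ± 0.33, edgeR adjusted p = 0.189). Mmp17, a membrane-type protease of smooth muscle and leukocytes, was at 3.42, 4.81 and 5.80 CPM in VAS+H2O, 7.30, 7.55 and 6.36 in IMQ+H2O, and 4.44, 3.07 and 5.50 in IMQ+XYF. IMQ+H2O lay above both other groups without overlap. Its log2 fold change was 0.59 ± 0.26 against VAS+H2O (edgeR adjusted p = 0.239). IMQ+XYF against IMQ+H2O, which shares the IMQ+H2O libraries, gave -0.70 ± 0.26 (edgeR adjusted p = 0.384), and neither was called. The 8 smooth muscle and pericyte markers summed to 833 to 1280 CPM in VAS+H2O, 1176 to 1423 in IMQ+H2O and 594 to 1116 in IMQ+XYF, and their part in Mmp17 was not tested.

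None of the 17 tested ADAMTS genes was called by edgeR in any of the 3 comparisons. The family is described by the role of its genes for IMQ+H2O against VAS+H2O, without a test between roles. Over all tested genes, 10.1% were higher and 10.8% lower at an unadjusted p under 0.05. The 7 ADAMTS genes that cut proteoglycans such as aggrecan and versican had a median log2 fold change of 0.63, with 3 higher and 0 lower at an unadjusted p under 0.05. The 3 procollagen N-proteinases, which trim the amino end of procollagens, had a median of -0.82, with 0 higher and 1 lower. The 4 genes related to fibrillin microfibrils had a median of -0.68, with 0 higher and 2 lower. Among the 2 was Adamts19, near the floor, with 11, 9 and 23 counts in VAS+H2O and 0, 5 and 0 in IMQ+H2O. It is also among the members counted above as lower at that p. Over all tested genes the median was -0.02.

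Among the proteoglycan-cutting genes, Adamts9 was at 28.6, 78.2 and 77.9 CPM in VAS+H2O, 117, 99.98 and 169 in IMQ+H2O, and 116, 68.2 and 171 in IMQ+XYF. The IMQ+H2O libraries were above the controls (log2 fold change 1.07 ± 0.44, edgeR adjusted p = 0.212). Adamts15, a versican-cutting protease, was at 31.9, 42.0 and 44.2 CPM in VAS+H2O, 52.5, 89.4 and 75.4 in IMQ+H2O, and 42.2, 18.9 and 58.6 in IMQ+XYF. It was higher in IMQ+H2O without overlap (0.88 ± 0.37, edgeR adjusted p = 0.220), and overlapped between the imiquimod groups (-0.86 ± 0.37, edgeR adjusted p = 0.417). Adamts8 was low, at 1.97 to 2.40 CPM in VAS+H2O and 2.82 to 3.64 in IMQ+H2O (0.57 ± 0.20, edgeR adjusted p = 0.159). Adamts1 was the most abundant ADAMTS per kb in VAS+H2O and had groups that overlapped (0.31 ± 0.32, edgeR adjusted p = 0.616).

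Of the N-proteinases, Adamts3 and Adamts14 were lower in IMQ+H2O than in VAS+H2O without overlap, and Adamts2 was not. Adamts3, which trims procollagens and also activates the lymphatic growth factor VEGF-C, was at 18.4, 11.9 and 12.4 CPM in VAS+H2O, 7.85, 4.54 and 7.92 in IMQ+H2O, and 9.87, 17.0 and 9.79 in IMQ+XYF. IMQ+H2O lay below both other groups without overlap. Its log2 fold change was -1.07 ± 0.31 for IMQ+H2O against VAS+H2O (edgeR adjusted p = 0.111), and 0.85 ± 0.31 for IMQ+XYF against IMQ+H2O (edgeR adjusted p = 0.379), 2 comparisons that share the IMQ+H2O libraries. DESeq2 called Adamts3 lower in IMQ+H2O against VAS+H2O. Adamts2, the main N-proteinase of skin, was at 338, 396 and 340 CPM in IMQ+H2O and 243, 149.8 and 318 in IMQ+XYF without overlap (-0.59 ± 0.25, edgeR adjusted p = 0.414). It did not differ beyond the spread between IMQ+H2O and VAS+H2O (0.20 ± 0.25, edgeR adjusted p = 0.680). Adamts14, named here after its values were seen, was at 204, 113 and 130 CPM in VAS+H2O and 98.9, 78.1 and 75.8 in IMQ+H2O (-0.82 ± 0.37, edgeR adjusted p = 0.248). In IMQ+XYF it was at 77.5, 233 and 138 CPM, which overlapped IMQ+H2O (0.83 ± 0.37, edgeR adjusted p = 0.429). Adamts10, related to fibrillin, was at 129, 91.4 and 113 CPM in VAS+H2O and 66.3, 84.3 and 76.0 in IMQ+H2O without overlap (-0.56 ± 0.18, edgeR adjusted p = 0.145).

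Cartilage markers varied among the libraries, and the order of the members was set beside them in VAS+H2O and IMQ+XYF. VAS+H2O replicate 1 and IMQ+XYF replicate 2 had the highest cartilage sums of their groups, at 4205 and 3151 CPM. They also had the lowest fibroblast (15300 and 11010 CPM) and endothelial (747 and 617 CPM) sums of their groups. The sums of smooth muscle, adipocyte, neutrophil and hair follicle markers were lowest there too. Those of monocyte and macrophage, keratinocyte and skeletal muscle markers were not lowest in both. Of the tested members, 9 (23.7%, against 18.7% of all tested genes) were highest of their group in both libraries, among them Adamts3, Adamts14, Mmp16, Timp2, Timp3 and Timp4. Another 23 (60.5%, against 20.5%) were lowest of their group in both, among them Timp1, Mmp2, Mmp3, Mmp8, Mmp14, Adamts4, Adamts9 and Adamts15. In IMQ+H2O, which was not part of these counts, replicate 1 had the highest cartilage sum, at 963 CPM. This library also had the lowest fibroblast sum of its group, at 10960 CPM, but not the lowest endothelial sum. Of the members just named as highest, Adamts14, Mmp16 and Timp3 were highest of their group there too, but Adamts3, Timp2 and Timp4 were not. Those named as lowest were lowest there too, except Adamts9. All 12 tested cartilage markers were lower in IMQ+H2O than in VAS+H2O at an unadjusted p under 0.05 in edgeR, and 3 were called. Over all tested genes, 10.8% were lower at that p and 0.348% were called lower. The part of cartilage, or of the other cell types that varied in the same libraries, in the levels of the members was not tested. With VAS+H2O replicate 1 and IMQ+XYF replicate 2 left out, an alternative chosen after seeing the data, Timp1 and Mmp8 were still called in IMQ+H2O. Their log2 fold changes were 3.37 (edgeR adjusted p = 0.0378) and 4.65 (edgeR adjusted p = 0.0464), and Adamts3 was among the 15 members at an unadjusted p under 0.05.

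**Figure D4:**
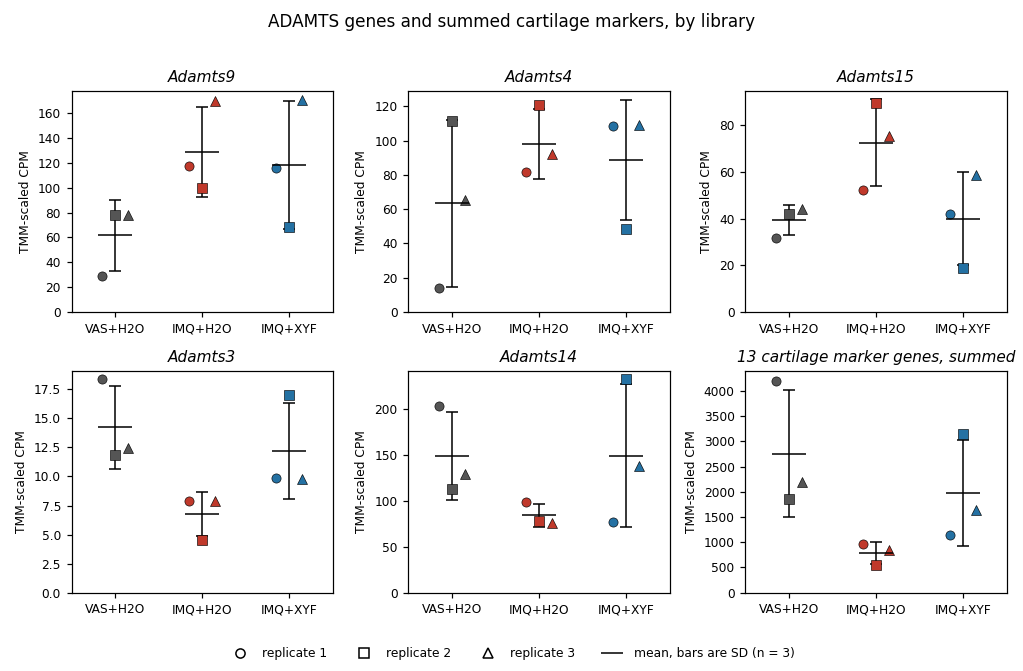
TMM-scaled CPM (vertical axis, starting at 0, own scale per panel) of 5 Adamts genes and the sum of 13 cartilage marker genes in each library of the 3 groups. Points are libraries, and the horizontal mark and bars are the mean and SD of 3. Adamts3 and Adamts14 are highest in VAS+H2O replicate 1 and IMQ+XYF replicate 2, the libraries with the highest cartilage sums of their groups (4205 and 3151 CPM), where Adamts4, Adamts9 and Adamts15 are lowest of their groups. Fibroblast and endothelial marker sums, not drawn, are also lowest of their groups in these libraries.

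The effect of XYF in inflamed dermis was read from IMQ+XYF against IMQ+H2O. No member was called by edgeR, where 0.00892% of all tested genes, 2 in number, were called, and DESeq2 also called no member. At an unadjusted p under 0.05, edgeR gave 4 members (10.5%, against 11.7% of all genes). They were Adamts3 on the higher side (2.63% of members, against 6.35% of all genes) and Mmp17, Adamts2 and Adamts15 on the lower side (7.89%, against 5.39%). The share of members in all was no larger than that of all genes. The groups did not overlap for 5 members (13.2%, against 18% of all genes). The median log2 fold change was -0.15 over the tested members and 0.01 over all tested genes.

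IMQ+XYF against VAS+H2O gave Timp1 as the only called member in edgeR (2.63%, against 1.2% of all tested genes). At an unadjusted p under 0.05 there were 11 members (28.9%, against 18.3%), 7 higher (against 9.58% of all genes) and 4 lower (against 8.76%). Groups did not overlap for 8 members (21.1%, against 22.1%). The 4 lower at that p were Adamts10, Adamts12, Adamts17 and Adamts20, of which the last 3 are named here after their values were seen. Adamts17 was at 4.17, 6.45 and 10.2 CPM in VAS+H2O and 3.68, 2.91 and 3.56 in IMQ+XYF (log2 fold change -1.04 ± 0.36, edgeR adjusted p = 0.171). Adamts16, not tested, had 5, 70 and 5 counts in VAS+H2O and none in the other 6 libraries. Against the floor of 3 counts per library its mean was at least 9.09-fold lower in IMQ+H2O and at least 14.5-fold lower in IMQ+XYF, a bound that rests mainly on VAS+H2O replicate 2.

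Partners of these enzymes were read from the same fit. Of 13 further inhibitors, activators and binding proteins, Lcn2, a neutrophil and keratinocyte protein that binds Mmp9, rose in IMQ+H2O. It was at 20.5, 32.2 and 22.4 CPM in VAS+H2O, 188, 215 and 296 in IMQ+H2O, and 147, 140.2 and 163 in IMQ+XYF (log2 fold change 3.22 ± 0.23 in IMQ+H2O, edgeR adjusted p = 0.00255). At an unadjusted p under 0.05, 2 of the 13 were higher and 4 lower in IMQ+H2O, where 10.1% of all tested genes were higher and 10.8% lower, the background for each count of partners in this comparison. The lower ones included Reck, a membrane-bound inhibitor of Mmp enzymes (-0.65 ± 0.25, edgeR adjusted p = 0.186), and Thbs1, a matrix glycoprotein (-0.96 ± 0.24, edgeR adjusted p = 0.0831). Of 8 plasminogen system genes, which provide another route to Mmp activation, 1 was higher and 0 lower. It was Plaur, the urokinase receptor (1.11 ± 0.38, edgeR adjusted p = 0.153).

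Of 9 ADAM sheddases tested, which release membrane proteins, 2 were higher and 0 lower in IMQ+H2O at that level. Adam15 had a log2 fold change of 0.78 ± 0.16 (edgeR adjusted p = 0.0540) and Adam8, of leukocytes, 1.15 ± 0.35 (edgeR adjusted p = 0.123). Of 7 ADAMTS-like proteins, which lack the protease domain, 0 were higher and 2 lower, with Adamtsl3 at -1.08 ± 0.38 (edgeR adjusted p = 0.165) and Thsd4 at -0.91 ± 0.24 (edgeR adjusted p = 0.0920).

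Of 13 matrix substrates, 2 were higher and 5 lower in IMQ+H2O at an unadjusted p under 0.05, and none was called. The higher ones were the basement membrane collagens Col4a1 (1.02 ± 0.29, edgeR adjusted p = 0.108) and Col4a2 (0.79 ± 0.21, edgeR adjusted p = 0.0945). Among the lower ones were Acan, the aggrecan of cartilage (-1.68 ± 0.40, edgeR adjusted p = 0.0753), and Eln, the elastin of elastic fibres and elastic cartilage (-1.46 ± 0.31, edgeR adjusted p = 0.0594). Acan is also 1 of the cartilage markers. The 10 endothelial markers summed to 747 to 1155 CPM in VAS+H2O, 1566 to 1655 in IMQ+H2O and 617 to 1447 in IMQ+XYF, and their part in the collagen levels was not tested.

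Of the 7 AP-1 subunits, 0 were higher and 5 lower in IMQ+H2O at an unadjusted p under 0.05 in edgeR (against 10.8% of all tested genes lower), and none was called. Fosl1 (log2 fold change -0.05 ± 0.54) and Fosl2 (-0.30 ± 0.31) were not among the 5. Fosb was at 1322, 1474 and 2384 CPM in VAS+H2O and 650.2, 955 and 781 in IMQ+H2O (log2 fold change -1.12 ± 0.23, edgeR adjusted p = 0.0582), and Jun had -0.78 ± 0.17 (edgeR adjusted p = 0.0596). The cluster genes with a TGANTCA match that were tested, Mmp3, Mmp10, Mmp12 and Mmp13, had log2 fold changes of 1.43, 1.65, 0.75 and -0.39, none of them called by edgeR. The part of AP-1 in their levels was not tested. Of 8 cytokines known to induce Mmp genes, 3 were higher and 0 lower. They were Osm, Tgfb1 and Il17a, none of them called, and for each the groups overlapped. Il17a was near the floor, with no count in VAS+H2O and 0, 14 and 5 counts in IMQ+H2O. Osm, an IL-6 family cytokine made by leukocytes, was at 5.22, 11.1 and 6.69 CPM in VAS+H2O and 8.54, 19.1 and 37.4 in IMQ+H2O (1.503 ± 0.63, edgeR adjusted p = 0.222).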

How the data were processed

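Libraries were made from ear dermis, 3 per group. Per the submitters' processing notes and the study's methods, the authors checked reads with FastQC, aligned them with STAR 2.5 to GRCm38 and tested with DESeq (1.22.1 in the notes) or DESeq2 (methods). StringTie (methods) and Cuffnorm (notes) are also named. The deposited values are whole-number read counts per gene, without normalization. The counting tool and its use of multiply aligned reads are not given in the sources used here. The labels call the libraries strand-specific and the methods name a TruSeq kit version that does not keep strand, so reads of overlapping genes on opposite strands may not be separated.

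Genes were filtered by filterByExpr and scaled by TMM, and all 9 libraries entered 1 quasi-likelihood fit in edgeR 4.0.16 (R 4.3.3; common biological coefficient of variation 0.296), with Benjamini-Hochberg adjustment over 22430 genes. Calls needed an adjusted p of 0.05 or lower and an absolute log2 fold change of at least 1. Standard errors are the absolute log2 fold change over the square root of F. A fold against a group without counts was set at a floor of 3 counts per library. Exon lengths and positions are from GENCODE for GRCm38, and promoters from RefSeq. The fit was also run on simulated counts with a fixed spread, smaller than the common value of these data. Changes were planted only in genes well above the floor, so that run does not cover low genes such as Mmp8. Alternatives were DESeq2 1.42.0, its size factors, no filter, only the groups compared, a replicate block and leaving out each library. The members, marker and partner lists were chosen with earlier results of these data known. Genes named in the text are the Timp genes, called members, members at an unadjusted p under 0.05 in either main comparison with a group mean of at least 1 CPM, the 5 highest per kb in VAS+H2O, the leukocyte and keratinocyte lists, Mmp2 and Mmp13. Others are named as chosen after seeing values, for their counts or as examples of a group. The cartilage gene Snorc was not matched to a row, and a search of protein sequences was not run.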

Additional observations from a re-analysis of the deposited data

How the results depend on the processing

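In IMQ+H2O against VAS+H2O, 2 members were called. DESeq2 called 5 (Timp1, Mmp8, Mmp3, Mmp9 and Adamts3), and leaving out 1 library gave 0 to 2. At an unadjusted p under 0.05 the count of 15 became 7 to 19 without 1 library. In IMQ+XYF against IMQ+H2O no member was called in any alternative, and the 4 at an unadjusted p under 0.05 became 7 without the filter on low counts, 2 with only both groups in the fit, and 2 to 7 without 1 library. In IMQ+XYF against VAS+H2O the 1 call became 2 with DESeq2 (Timp1 and Mmp8), 0 with only both groups in the fit, 2 (Timp1 and Mmp1b) with both cartilage-high libraries left out, an alternative chosen after seeing the data, and 0 to 3 without 1 library. Mmp1b was not tested in the main fit and had no count in the controls. IMQ+XYF replicate 2, left out in that alternative, was the library of its group without Mmp1b counts. The call of Mmp1b therefore rests on which library was left out. The 11 at an unadjusted p under 0.05 became 7 to 13. A library left out reduces the residual degrees of freedom, and the cause of the other changes was not tested.

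Of 9 same-numbered pairs of libraries between groups, deviations from the group means correlated with r from -0.183 to 0.125, and 1 was over 0.1. VAS+H2O replicate 1 and IMQ+XYF replicate 2, which differ in number, reached 0.277. No strong deviation shared by number was seen, but these values cannot exclude that same-numbered libraries were handled together. A fit with the replicate number as a block called 1 member (Timp1) in IMQ+H2O against VAS+H2O and 0 in IMQ+XYF against VAS+H2O.

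Signs changed only among values that were not called. With the replicate block, log2 fold changes were 0.10 for Mmp13 in IMQ+H2O against VAS+H2O, -0.000677 for Adamts8 in IMQ+XYF against IMQ+H2O and -0.013 for Adamts15 in IMQ+XYF against VAS+H2O. Without the filter Adamts10 had 0.0077 in IMQ+XYF against IMQ+H2O. With both cartilage-high libraries left out, Adamts9 had 0.16, Mmp19 0.11 and Timp2 -0.11 in that comparison.

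Without 1 library, the IMQ+H2O against VAS+H2O values ran from -0.98 to 1.16 for Mmp13, -0.24 to 0.031 for Mmp2 and -0.11 to 0.65 for Timp4. The IMQ+XYF against IMQ+H2O values ran from -0.10 to 0.24 for Adamts1, -0.11 to 0.15 for Adamts10, -0.12 to 0.10 for Adamts8, -0.48 to 0.18 for Adamts9, -0.42 to 0.33 for Mmp12, -0.12 to 2.88 for Mmp13, -0.27 to 0.023 for Mmp14, -0.42 to 0.14 for Mmp19, -0.12 to 0.14 for Mmp28, -0.70 to 0.16 for Mmp3, -0.78 to 0.0503 for Mmp9, -0.61 to 0.51 for Timp1 and -0.085 to 0.16 for Timp2. The IMQ+XYF against VAS+H2O values ran from -0.36 to 0.41 for Adamts15, -0.49 to 0.0040 for Adamts3, -0.52 to 3.47 for Mmp13, -0.10 to 0.21 for Mmp14 and -0.31 to 0.14 for Mmp17.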
